A study of Homo sapiens
Mus musculus and Mus musculus and Homo sapiens with 16 samples.

Results

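The genes described here are the 9 B cell receptor and coreceptor genes IGHM, IGHD, IGKC, CD79A, CD79B, CR2, CD22, CD72 and MS4A1, chosen by symbol from the 58051 human genes of the count table. All 9 were measured in all 12 REC-1 libraries and all 9 passed the low-count filter that left 12861 genes to test. REC-1 is a mantle cell lymphoma (MCL) line and MS-5 a mouse bone marrow stromal line, and polyadenylated RNA was sequenced from 4 libraries each of REC-1 cells in monoculture (Sep), REC-1 cells left in suspension in a coculture with MS-5 (Susp) and REC-1 cells adhering to MS-5 (Adh), after 24 h. The labels name no genetic change and no drug in any group, and the groups differed in the presence of MS-5 cells and in the fraction collected. Adh libraries were made from RNA of REC-1 and MS-5 cells together, and human and mouse reads were separated in silico. The groups represent 1 MCL line on 1 mouse stromal line, and the 4 replicates of each group came from independent experiments.

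The B cell receptor is a membrane immunoglobulin, made of heavy and light chains, that is held to a signaling dimer of CD79A and CD79B. Antigen binding leads Src family kinases to phosphorylate the dimer, and SYK and BTK pass the signal on. CR2 (CD21) binds complement fragments on antigen and, in a complex with CD81, strengthens the signal, whereas CD22 and CD72 recruit phosphatases that weaken it. MCL cells usually carry IgM with IgD on their surface, and signaling through the receptor is a target of treatment in this lymphoma.

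Library totals lay between 9325412 and 12597891 human counts in Sep, between 15000927 and 21467832 in Susp and between 7758979 and 13241751 in Adh. The Adh libraries stood apart in their mitochondrial share, 0.362% to 0.683% of counts, against 1.56% to 2.02% in Sep and 1.31% to 2.17% in Susp. PAX5, a B lineage marker, had group means of 911, 807 and 877 CPM (counts scaled by TMM to a common library size) in Sep, Susp and Adh, whereas the 5 T and NK cell markers summed to at most 7.83 CPM and the 5 myeloid markers to at most 2.20 CPM. The 7 human stromal and endothelial markers summed to 17.4 to 32.3 CPM, nearly all of it PECAM1, which B cells also express, and each of the other 6 stayed at 0.513 CPM or less. Of the MCL markers, CCND1 and SOX11 were detected, and CD5 stayed at 1.35 CPM or less. In pooled RNA, fewer cells carrying a transcript and less of that transcript per cell cannot be told apart. A gene is said to be called when the Benjamini-Hochberg adjusted p-value of edgeR's quasi-likelihood test, taken over all 12861 genes, was at most 0.05 and the fold change at least 1.5. Susp replicate 2 held the highest CPM of its group for IGHM, IGHD, IGKC, CD79A, CD79B and CD72 and the lowest for CR2 and MS4A1. Immunoglobulin genes took 2.40% of its counts, against 1.81% to 1.98% in the other Susp libraries. Pairs of replicates were also compared over their genes by chi-square per degree of freedom, which is larger the more their counts differ. It was 52.8 to 57.4 between Susp replicate 2 and each other Susp library. Among the other Susp libraries it was 6.76 to 10.1, and it was at most 20.8 within Sep and 12.3 within Adh. Susp replicate 2 thus differed in more than the receptor genes, and the cause was not tested. Results that rest on Susp cells are therefore given with and without it.

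Per kilobase of exon, IGKC and IGHM were the most abundant of the 9 genes. Over the 12 libraries, the mean CPM per kilobase of exon (RPKM) was 14108 for IGKC, the kappa light chain constant gene, 2634 for IGHM, the constant gene of the IgM heavy chain, and 830.3 for CD79A. CD79B followed at 266 RPKM and MS4A1, which encodes the membrane protein CD20, at 244 RPKM. The ranges of this pair overlapped, 209 to 418 RPKM for CD79B and 208 to 288 RPKM for MS4A1. CR2 had a mean of 29.6 RPKM, IGHD, the constant gene of the IgD heavy chain, 16.5 RPKM, CD72 10.2 RPKM and CD22 9.85 RPKM, and each of these overlapped its neighbor in the order over single libraries.

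REC-1 cells expressed a kappa receptor built from few gene segments. IGKC made up 99.7% to 99.8% of the light chain constant counts in every library. IGHM took 98.1% of the heavy chain constant counts of the 12 libraries, IGHA1 1.22% and IGHD 0.577%. IGHV1-2 held 98.7% of the counts on heavy chain variable segments and IGKV3-11 held 94.2% of those on kappa variable segments, with IGKV1-39 next at 5.44%. Lambda variable segments drew 1227 counts in all, of which IGLV1-62 held the most. V segments have near-identical relatives. Pairs with more than 1 alignment were dropped, so the shares of such segments are uncertain.

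Promoter sequences are shown for CD79A, a chain of the signaling dimer, for the CR2 and CD72 genes, which varied in opposite directions, and for the V segment that held most heavy chain counts. Each is the GRCh38 reference over the 250 bases before the start of the Ensembl canonical transcript in GENCODE release 44, written 5′ to 3′ on the strand of the gene, and capitals mark matches to the motifs named below. The windows are chr19:41877029-41877278 (plus strand) for CD79A, chr1:207454078-207454327 (plus) for CR2, chr9:35618414-35618663 (minus) for CD72 and chr14:105987084-105987333 (minus) for IGHV1-2. The CR2 and CD72 windows lie inside the annotated extents of these genes, which have other transcripts that start further upstream. The constant genes IGHM (chr14:105851705-105856218) and IGHD (chr14:105836765-105845677) lie side by side on the minus strand, as does IGKC on chromosome 2 (chr2:88857161-88857683) downstream of the kappa J segments.
CD79A: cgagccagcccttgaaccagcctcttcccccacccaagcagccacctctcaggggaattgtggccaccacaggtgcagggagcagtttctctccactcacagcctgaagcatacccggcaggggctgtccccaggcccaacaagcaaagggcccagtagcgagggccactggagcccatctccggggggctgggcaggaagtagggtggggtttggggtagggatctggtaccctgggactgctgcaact
CR2: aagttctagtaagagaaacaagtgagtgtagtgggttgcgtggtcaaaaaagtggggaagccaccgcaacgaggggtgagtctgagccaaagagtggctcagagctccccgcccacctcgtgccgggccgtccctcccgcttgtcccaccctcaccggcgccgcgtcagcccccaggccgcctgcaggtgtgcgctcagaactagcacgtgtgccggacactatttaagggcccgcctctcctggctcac
CD72: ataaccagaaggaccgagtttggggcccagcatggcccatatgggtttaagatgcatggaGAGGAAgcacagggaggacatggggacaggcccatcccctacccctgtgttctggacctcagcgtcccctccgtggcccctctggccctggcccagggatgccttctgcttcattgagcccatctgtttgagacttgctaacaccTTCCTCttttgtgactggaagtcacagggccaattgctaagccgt
IGHV1-2: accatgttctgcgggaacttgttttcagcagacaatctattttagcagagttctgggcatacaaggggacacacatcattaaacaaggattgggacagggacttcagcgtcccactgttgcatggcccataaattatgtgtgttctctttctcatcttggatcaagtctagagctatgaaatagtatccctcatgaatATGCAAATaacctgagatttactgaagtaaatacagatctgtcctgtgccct
The octamer ATGCAAAT, the site of the POU factors that act in immunoglobulin promoters, was found in IGHV1-2, 52 bases before the start. Among windows not shown, that of CD79B held the octamer on the other strand, 64 bases before the start, and that of IGKV3-11 held no exact match. It occurred on either strand in 1.57% of 20033 promoters of protein-coding genes of the same length. The letters GAGGAA, a core bound by ETS factors, were found on both strands of CD72, and in 23.3% of all promoters. Palindromic EBF1 sites (in 1.23% of promoters) and the NF-kB consensus of the kappa enhancer (in 0.18%) were not among the letters of these windows. No motif overlapped another. A match describes the letters only.

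The comparison of Susp with Sep cells asks how REC-1 cells in the same dish as stromal cells, but not attached, differ from cells grown alone. Of the 9 genes, 2 were called, with CR2 lower and CD72 higher in Susp, against 0.731% of all tested genes called in this comparison. With CD22 and CD79B, 4 passed the p threshold, against 1.02% of all tested genes. The groups did not overlap for 7 of the 9 genes, against 11.3% of all tested genes. With Susp replicate 2 included, the median log2 fold change of the 9 was 0.33, against -0.01 over all tested genes, and 7 of the 9 values were positive.

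**Figure D1:**
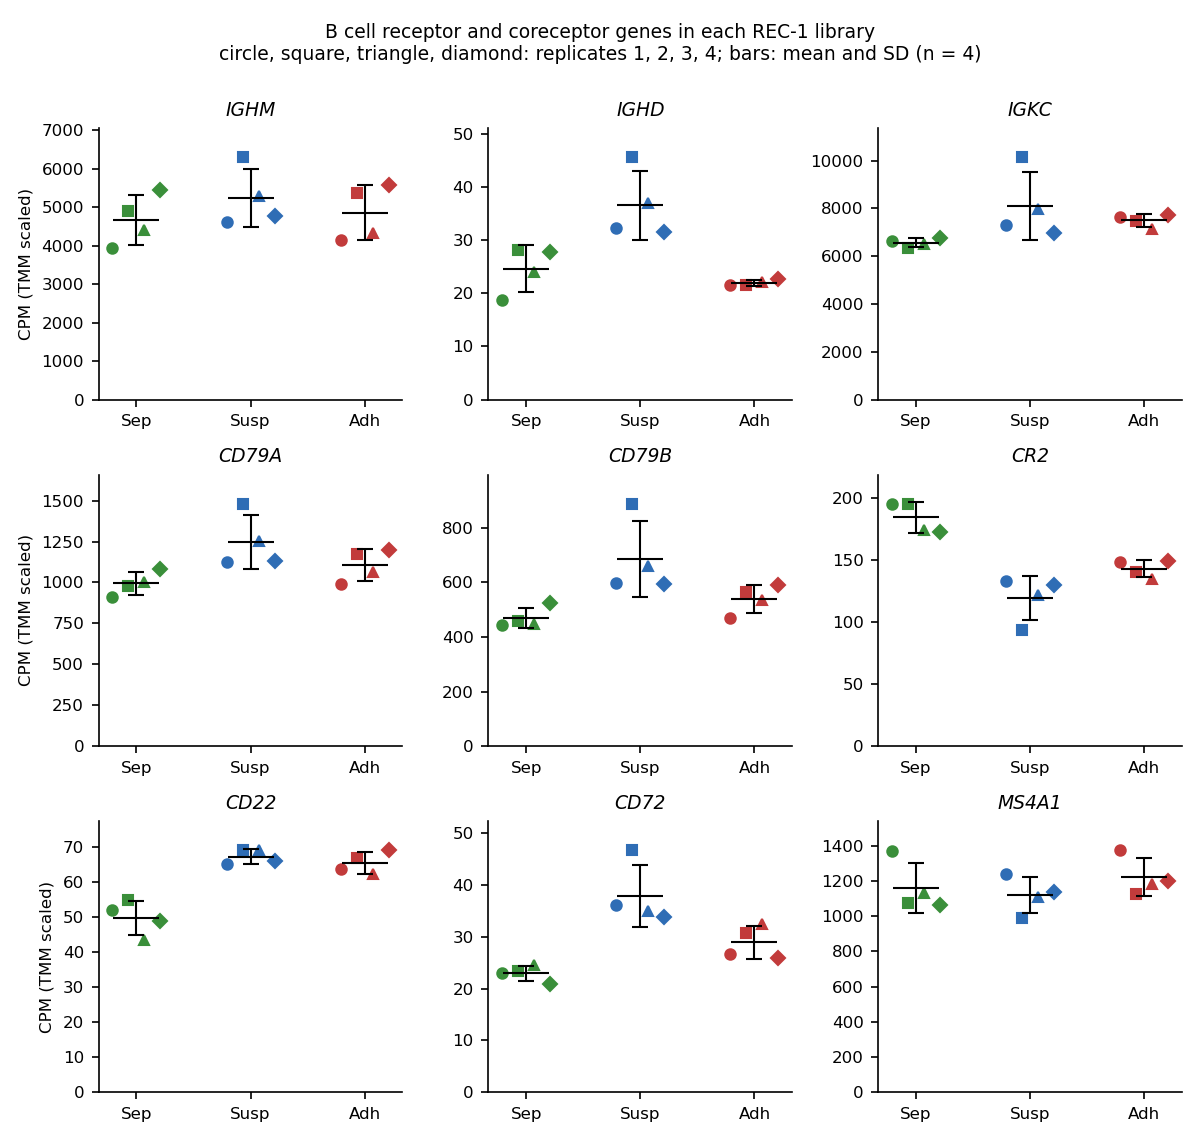
CPM of the 9 genes (y axes, from 0, TMM scaled) in each REC-1 library by group, with symbols for replicates 1 to 4 and bars for the mean and SD (n = 4). CR2 was lowest in Susp, CD22 was low in Sep only, CD72 was highest in Susp, and Susp replicate 2 (square) was the extreme of its group for every gene, although level with replicate 3 for CD22.

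CR2, the complement receptor of the coreceptor complex, was the gene that fell. Its levels in Sep replicates 1 to 4 were 195, 195, 174 and 172 CPM. In Susp they were 133, 93.3, 122 and 129 CPM, and in Adh 148, 140.5, 135 and 149 CPM. Every Susp library lay below every Adh library, and every Adh library below every Sep library. Between Susp and Sep the log2 fold change was -0.63 ± 0.10 (SE, adjusted p = 0.00550), that is 0.647 times the Sep level. Without Susp replicate 2 it was -0.54 with an adjusted p of 0.000906, which is past the p threshold but under 1.5-fold, so the call rests on that library. The Adh value against Sep was -0.36 ± 0.10 (adjusted p = 0.0645) and against Susp 0.26 ± 0.10 (adjusted p = 0.212), so neither passed.

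CD72, an inhibitory receptor with a lectin-like domain, moved the other way. It was counted at 22.99, 23.3, 24.5 and 20.97 CPM in Sep, at 36.1, 46.7, 34.8 and 33.7 CPM in Susp and at 26.6, 30.7, 32.4 and 25.9 CPM in Adh. The 3 groups were fully separate, in the reverse order of CR2. The rise in Susp over Sep was 0.72 ± 0.12 (adjusted p = 0.00604), or 1.65-fold, and it remained called at 0.60 (adjusted p = 0.00736) without Susp replicate 2. Adh cells differed from Sep by 0.33 ± 0.12 (adjusted p = 0.142) and from Susp by -0.39 ± 0.12 (adjusted p = 0.125). CD72 shares 60 exon bases with TESK1 and 152 with a long non-coding RNA, both on the opposite strand, and the library kit does not mark strand, so reads there cannot be assigned to a strand.

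CD22, the sialic acid binding inhibitory receptor, was higher in both fractions of the coculture. Sep libraries held 51.9, 54.6, 43.3 and 48.9 CPM, Susp libraries 64.9, 69.0, 68.9 and 65.8 CPM and Adh libraries 63.6, 66.8, 62.1 and 68.9 CPM. Susp and Adh overlapped with each other and neither overlapped with Sep. The log2 fold change passed the p threshold but not the fold minimum in both cases, at 0.43 ± 0.09 in Susp (adjusted p = 0.0236) and 0.39 ± 0.09 in Adh (adjusted p = 0.0250). The difference between Adh and Susp was -0.04, with a 95% interval from -0.23 to 0.15. CD22 shares 15 exon bases with a long non-coding RNA and 26 with MIR5196.

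CD79B, a chain of the signaling dimer, passed the p threshold at a log2 fold change of 0.55 ± 0.12 in Susp over Sep (adjusted p = 0.0310) and at 0.39 (adjusted p = 0.0133) without Susp replicate 2, in both cases under 1.5-fold. Its levels were 445, 458, 449 and 524 CPM in Sep and 599, 889, 662 and 593 CPM in Susp. In Adh they were 470.3, 564, 536 and 589.9 CPM, a range that overlapped Sep and lay just below Susp. In GENCODE release 44 CD79B shares 288 exon bases with another protein-coding gene on the same strand, and reads there are uncertain. CD79A, its partner, was at 910.3 to 1082 CPM in Sep, 1127 to 1481 CPM in Susp and 990.5 to 1198 CPM in Adh, with a difference of 0.33 ± 0.10 between Susp and Sep that did not pass (adjusted p = 0.120). Without Susp replicate 2 the CD79A difference was 0.23 (edgeR, adjusted p = 0.167). Across the 12 libraries, the log2 CPM values of CD79A and CD79B correlated with Pearson's r = 0.972, the highest of the 36 pairs among the 9 genes, and those of CR2 and CD72 with r = -0.944, the lowest. These correlations describe libraries that share their groups, depth and scaling.

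**Figure D2:**
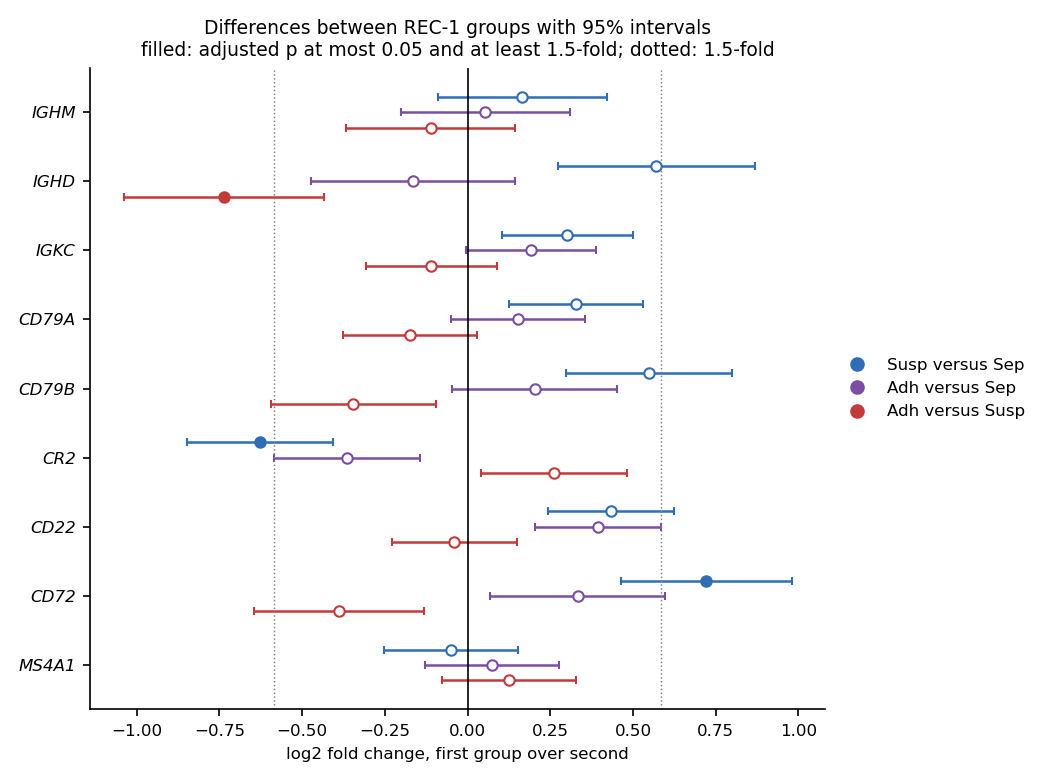
Log2 fold change (x axis) of the 9 genes (y axis) in the 3 comparisons, with 95% intervals from the model, filled points for called genes and dotted lines at 1.5-fold. The filled points are CR2 and CD72 in Susp over Sep and IGHD in Adh over Susp, and all intervals of IGHM and MS4A1 include 0.

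IGKC, IGHM and MS4A1 were not called in any comparison. IGKC was at 6336 to 6758 CPM in Sep, 6961 to 10132 CPM in Susp and 7132 to 7736 CPM in Adh. Both coculture fractions lay above Sep without overlap, but neither the difference in Susp, 0.30 ± 0.09 (adjusted p = 0.142), nor that in Adh, 0.19 ± 0.09 (adjusted p = 0.262), passed. Without Susp replicate 2 the IGKC difference between Susp and Sep was 0.16 (edgeR, adjusted p = 0.168). IGHM ranged from 3939 to 5457 CPM in Sep, from 4627 to 6297 CPM in Susp and from 4151 to 5578 CPM in Adh, and the groups overlapped in every comparison. Its difference between Adh and Sep was 0.05, with a 95% interval from -0.20 to 0.31. MS4A1 ranged from 1060.3 to 1367 CPM in Sep, 991 to 1239 CPM in Susp and 1126 to 1374 CPM in Adh, and its difference between Adh and Sep was 0.07, with an interval from -0.13 to 0.28. A difference of 1.5-fold lay outside both of these intervals. Of 5 tested plasma cell markers, only MZB1, a helper of immunoglobulin assembly, was called higher in Susp (0.74 ± 0.15) and in Adh (0.59 ± 0.15) than in Sep. The 5 had a median of 0.15 in Susp and 0.19 in Adh against Sep, with lowest values of -0.31 and -0.18. JCHAIN had means of 41.0, 49.9 and 36.1 CPM in Sep, Susp and Adh. The 6 listed markers summed to 147 to 161 CPM in Sep, 191 to 257 CPM in Susp and 185 to 194 CPM in Adh, and their part in the values of the immunoglobulin genes was not tested.

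The comparison of Adh with Susp cells asks how attached and unattached REC-1 cells of the coculture differ. Of the 9 genes, 1 was called, IGHD, which was lower in Adh, against 0.778% of all tested genes called and 0.669% called lower. The groups did not overlap for 4 genes (IGHD, CD79B, CD72 and CR2), against 11.4% of all tested genes. With Susp replicate 2 included, the median log2 fold change of the 9 was -0.11. This comparison shares its Susp libraries with that of Susp and Sep, so the values of both turn on the same 4 libraries.

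IGHD was counted at 21.5, 21.6, 22.1 and 22.7 CPM in Adh and at 32.3, 45.5, 36.9 and 31.5 CPM in Susp, on 172 to 286 and 469 to 764 counts. Every Adh library lay below every Susp library. The log2 fold change was -0.74 ± 0.14 (adjusted p = 0.0192), or 0.600 times the Susp level, and it was -0.60 (adjusted p = 0.0279) without Susp replicate 2. The call was lost when Susp replicate 3 or Adh replicate 1, 2 or 3 was left out, with adjusted p-values up to 0.0704. IGHD remained called with mitochondrial genes removed before scaling. In Sep, IGHD was at 18.7, 28.1, 24.1 and 27.7 CPM, below every Susp library and overlapping with Adh. The difference between Susp and Sep was 0.57 ± 0.14 (adjusted p = 0.0681) and that between Adh and Sep -0.17 ± 0.15 (adjusted p = 0.565).

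IGHD and IGHM are made from 1 primary transcript by alternative processing, so their ratio can be followed within each library without any scaling. IGHD made up 0.471%, 0.569%, 0.543% and 0.505% of the sum of IGHM and IGHD counts in Sep. The share was 0.692%, 0.718%, 0.691% and 0.657% in Susp and 0.515%, 0.401%, 0.507% and 0.405% in Adh. The Susp mean of 0.690% ± 0.0252 (SD, n = 4) was above that of Sep, 0.522% ± 0.0430, and that of Adh, 0.457% ± 0.0625, with no overlap. Over the 3 pairs of groups, two-sided exact permutation tests gave p = 0.0286 (adjusted p = 0.0429) for Susp against Sep and the same value for Adh against Susp, which is the smallest that 4 against 4 libraries allow. The share differed by -0.0651 percentage points between Adh and Sep (exact p = 0.200). The level of IGHD in these libraries was known when the share was chosen for testing.

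**Figure D3:**
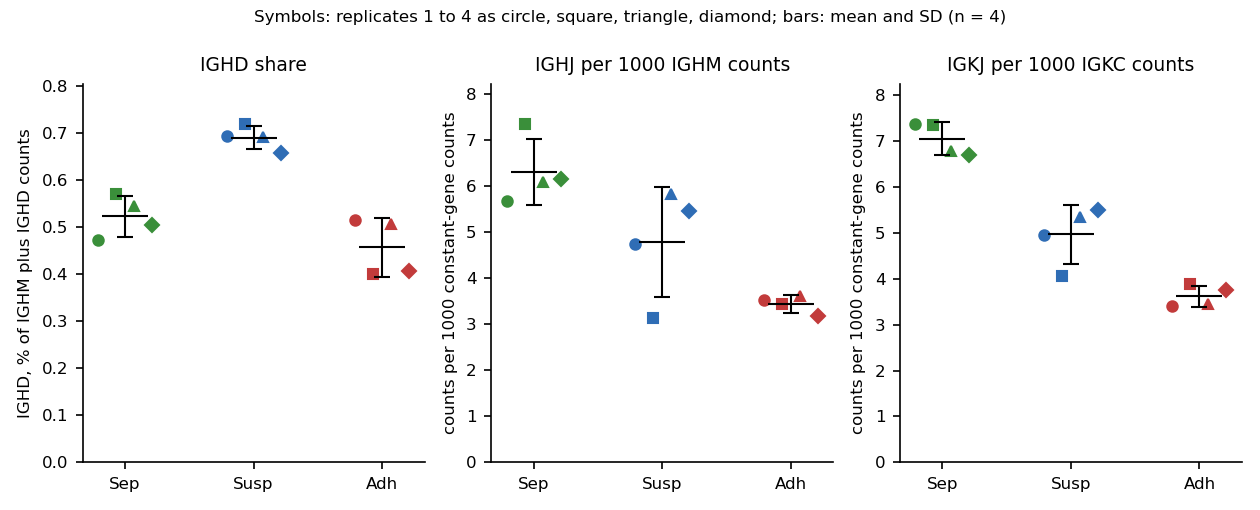
IGHD as a percentage of IGHM plus IGHD counts (left), and J segment counts per 1000 counts of IGHM (middle) and of IGKC (right), by library, with bars for the mean and SD (n = 4). The IGHD share is highest in Susp, whereas the kappa J counts fall from Sep through Susp to Adh with no overlap between groups.

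The comparison of Adh with Sep cells asks how attached REC-1 cells differ from cells grown alone. None of the 9 genes was called, against 2.4% of all tested genes called and 0.583% called higher. CD22 passed the p threshold, as did 3.41% of all tested genes. An unadjusted p under 0.05 by edgeR was found for 3 of the 9 (CD22, CR2 and CD72) and for 2596 of all 12861 tested genes. DESeq2 also called 0 of the 9 genes. The groups did not overlap for 4 genes (IGKC, CD22, CD72 and CR2), against 15.7% of all tested genes, and the median log2 fold change was 0.15. Without Susp replicate 2, which alters the shared estimate of spread, IGKC (adjusted p = 0.0155), CR2 (0.00391) and CD72 (0.0418) passed the p threshold of edgeR's test beside CD22, all of them under 1.5-fold. Adh and Susp are compared with the same Sep libraries.

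Several J segments of the receptor loci, which were singled out after their values were seen, were lower in Adh than in Sep, whereas IGHM, IGKC and the main V segments were not called. Recombination joins a J segment to a V segment, through a D segment in the heavy chain locus. Any J segments further along stay between the joined segment and the constant gene, in the stretch that splicing removes from the transcript. The kappa J segments that drew counts are shown with the 10 reference bases that follow them, and with IGHJ5 of the heavy chain locus. Capitals mark the first 2 bases after the segment, the GT of its splice donor. They are the GRCh38 reference, not the rearranged sequence of REC-1, on the minus strand at chr2:88861876-88861923, chr2:88861211-88861258, chr2:88860876-88860922, chr2:88860558-88860605 and chr14:105863804-105863862.
IGKJ1: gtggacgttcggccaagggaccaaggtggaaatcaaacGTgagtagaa
IGKJ3: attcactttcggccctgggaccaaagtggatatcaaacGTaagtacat
IGKJ4: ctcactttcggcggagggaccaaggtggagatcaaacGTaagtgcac
IGKJ5: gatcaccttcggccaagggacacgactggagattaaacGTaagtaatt
IGHJ5: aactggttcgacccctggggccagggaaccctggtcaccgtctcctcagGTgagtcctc
IGKJ2, which lies between IGKJ1 and IGKJ3, was listed at 0 in all 12 libraries, as were IGHJ1, IGHJ2 and IGHJ3. IGHJ4 and IGHJ5 share most of their 3′ sequence. Pairs that aligned to both were dropped, so the counts of these 2 segments are uncertain.

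IGKJ3, IGKJ4 and IGKJ5 fell in Adh relative to Sep, against 1.82% of all tested genes called lower. IGKJ5 was counted at 11.2, 9.37, 9.83 and 9.49 CPM in Sep, at 6.64, 5.10, 7.06 and 7.39 CPM in Susp and at 3.01, 2.89, 4.24 and 4.36 CPM in Adh. The 3 groups were separate, in the order Sep, Susp, Adh. Between Susp and Sep the log2 fold change was -0.61 for IGKJ5 (edgeR, adjusted p = 0.113), -0.55 for IGKJ3 (0.134) and -0.46 for IGKJ4 (0.310). That of IGHJ5 was -0.43 (0.300), and none of these was called. The log2 fold change between Adh and Sep was -1.48 ± 0.19 (adjusted p = 0.000385) for IGKJ5, -1.41 ± 0.25 (adjusted p = 0.00424) for IGKJ4 and -1.32 ± 0.18 (adjusted p = 0.000524) for IGKJ3. IGKJ1, the segment nearest to the V genes, differed by -0.03 ± 0.19 (adjusted p = 0.949), IGKV3-11 by 0.10 ± 0.08 and IGKC by 0.19 ± 0.09. In the heavy chain locus IGHJ5 fell by 1.001 ± 0.22 on the log2 scale (adjusted p = 0.0197), whereas IGHV1-2 gave -0.06 ± 0.07. IGHJ6 gave -0.61 ± 0.16 (adjusted p = 0.0512) and was called in 6 of 9 other settings of the fit. The call of IGHJ5 was lost when Sep replicate 2 or 4 or Adh replicate 1 or 3 was left out (adjusted p up to 0.0858), and those of the 3 kappa segments held in each of the 12 cases of a library left out.

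**Figure D4:**
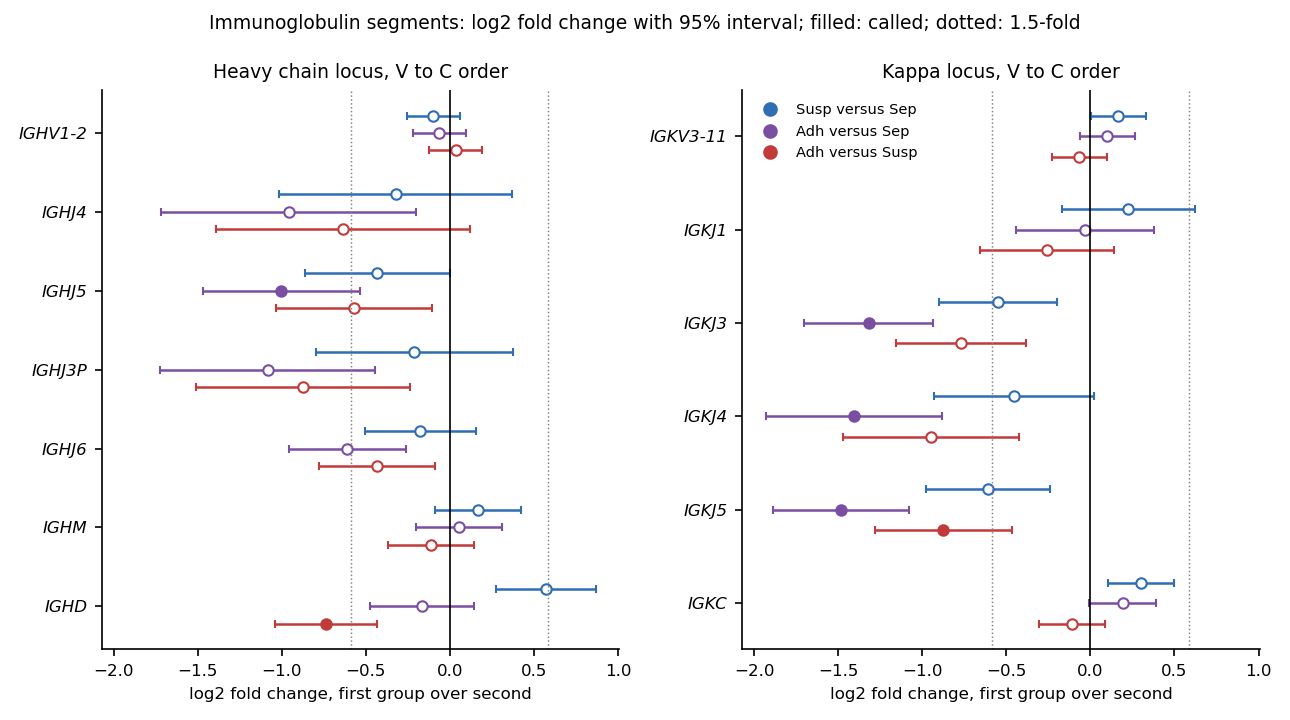
Log2 fold change with 95% interval (x axis) of heavy chain (left) and kappa (right) segments, listed from V to C (y axis), in the 3 comparisons, with filled points for called segments and dotted lines at 1.5-fold. Points of the J segments after IGKJ1 lie to the left of 0 in all comparisons, whereas V segments and constant genes other than IGHD lie near 0.

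Between Adh and Susp, IGKJ5 was called at -0.88 ± 0.19 (adjusted p = 0.0385), but 9 of the 12 cases of a library left out ended this call. IGKJ3, at -0.77 ± 0.18 (adjusted p = 0.0580), and IGKJ4, at -0.95 ± 0.25 (adjusted p = 0.0753), were not called over all libraries. Of 9 other settings of the fit, 4 called IGKJ3 and 3 called IGKJ4, and both were called without Susp replicate 2. Relative to the constant gene of the same locus, the summed kappa J counts were 7.05 ± 0.353 per 1000 IGKC counts in Sep, 4.96 ± 0.646 in Susp and 3.62 ± 0.227 in Adh (SD, n = 4). The heavy chain J counts were 6.31 ± 0.718 per 1000 IGHM counts in Sep, 4.79 ± 1.19 in Susp and 3.44 ± 0.191 in Adh, where Sep and Adh did not overlap. These heavy chain counts included the pseudogene IGHJ3P, at means of 6.30, 5.41 and 2.90 CPM in Sep, Susp and Adh. IGHJ3P and IGHJ4 were tested, and neither was called in any comparison. MALAT1 and NEAT1, long non-coding RNAs that are kept in the nucleus, were also lower in Adh than in Sep, with log2 fold changes of -1.07 ± 0.22 (adjusted p = 0.0113) and -1.29 ± 0.20 (adjusted p = 0.00133). Their part in the J segment result was not tested.

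Around the receptor, the remaining genes of the coreceptor complex and B cell surface gave 1 higher and 2 lower calls among 12 tested genes in Susp against Sep, and 1 higher and 3 lower in Adh against Sep. Of all tested genes, 0.428% were called higher and 0.303% lower in Susp against Sep, and 0.583% and 1.82% in Adh against Sep. CR1, the complement receptor encoded beside CR2, fell from 50.1 ± 5.18 CPM in Sep to 29.0 ± 5.84 in Susp (log2 fold change -0.79 ± 0.13, adjusted p = 0.00590) and 30.0 ± 2.27 in Adh (-0.74 ± 0.14, adjusted p = 0.00532). CD180, a Toll-like receptor homolog of B cells, fell by 0.71 ± 0.12 in Susp and by 0.60 ± 0.12 in Adh on the log2 scale. SPN, the sialomucin CD43, fell by 0.89 ± 0.09 in Adh (adjusted p = 5.94e-05). IFITM1, an interferon-induced membrane protein that associates with CD81, rose by 1.03 ± 0.22 in Susp and 0.999 ± 0.23 in Adh, from a mean of 2.55 CPM in Sep. CD81, a partner of CR2, was not called, at 0.43 (adjusted p = 0.0966) in Susp against Sep.

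The proximal kinases and adaptors gave 1 call among 29 tested genes in each of these comparisons, where 0.731% and 2.4% of all tested genes were called. It was LCK, a Src family kinase, at 0.68 ± 0.15 in Susp (adjusted p = 0.0424) and 0.61 ± 0.16 in Adh (adjusted p = 0.0438). Both calls were lost in 10 of 12 cases of a library left out, and LCK was at a mean of 6.15 CPM in Sep. VAV2 passed the p threshold under 1.5-fold in Susp against Sep, at means of 145 and 106 CPM. SYK, LYN and BTK, the kinases next to the receptor, differed by at most 0.18 on the log2 scale in every comparison. The 29 genes ranged from -0.65 to 0.87 in Susp against Sep, from -0.42 to 1.24 in Adh against Sep and from -0.31 to 0.37 in Adh against Susp. Of 20 inhibitory receptors and phosphatases tested, PECAM1 rose in Susp by 0.70 ± 0.11 (adjusted p = 0.00385), and UBASH3B, which dampens receptor signaling, fell by 0.92 ± 0.15 in Susp and by 0.78 ± 0.15 in Adh. INPP5D (SHIP1), a lipid phosphatase that acts below inhibitory receptors, passed the p threshold under 1.5-fold, at -0.42 in Susp (adjusted p = 0.00930) and -0.43 in Adh (adjusted p = 0.00457). FCGR2B, an inhibitory Fc receptor, did so in Adh against Susp, at -0.46 (adjusted p = 0.0331).

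Of 21 tested genes known to be induced by receptor ligation, DUSP5 rose and CD69 fell in Susp against Sep, by 0.72 ± 0.15 and 0.68 ± 0.13 on the log2 scale. None was called in Adh against Sep or in Adh against Susp, where 6 of the 21 had an unadjusted p under 0.05 by edgeR in each case. Of all 12861 tested genes, 2596 had such a p in Adh against Sep and 2316 in Adh against Susp. The median of these 21 was 0.23 in Adh against Susp and -0.03 in Susp against Sep. None of 16 transcription factors of the receptor gene loci was called in any comparison. The most abundant by the mean of the 12 libraries were PAX5, with the levels given above, and IKZF1, at 773, 651 and 709 CPM in Sep, Susp and Adh, and POU2F2, which binds the octamer, passed the p threshold at -0.47 ± 0.10 in Adh against Sep (adjusted p = 0.0198). Among 8 tested immunoglobulin constant and surrogate genes outside the 9, IGLC2 rose in Susp by 0.92 ± 0.18 and in Adh by 0.74 ± 0.19 from 5.89 CPM in Sep, and IGHA1 differed by -0.65 ± 0.18 between Adh and Susp (adjusted p = 0.0959). Leaving out a library ended the calls in Susp against Sep in 5 of 12 cases for IFITM1 and for DUSP5 and in 3 for CD69 and for IGLC2, and those in Adh against Sep in 7 for IGLC2, 4 for IFITM1 and 3 for CD180. The calls of CR1, SPN, PECAM1 and UBASH3B held in all 12 cases. No gene of these lists outside the 9 was called between Adh and Susp.

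**Figure D5:**
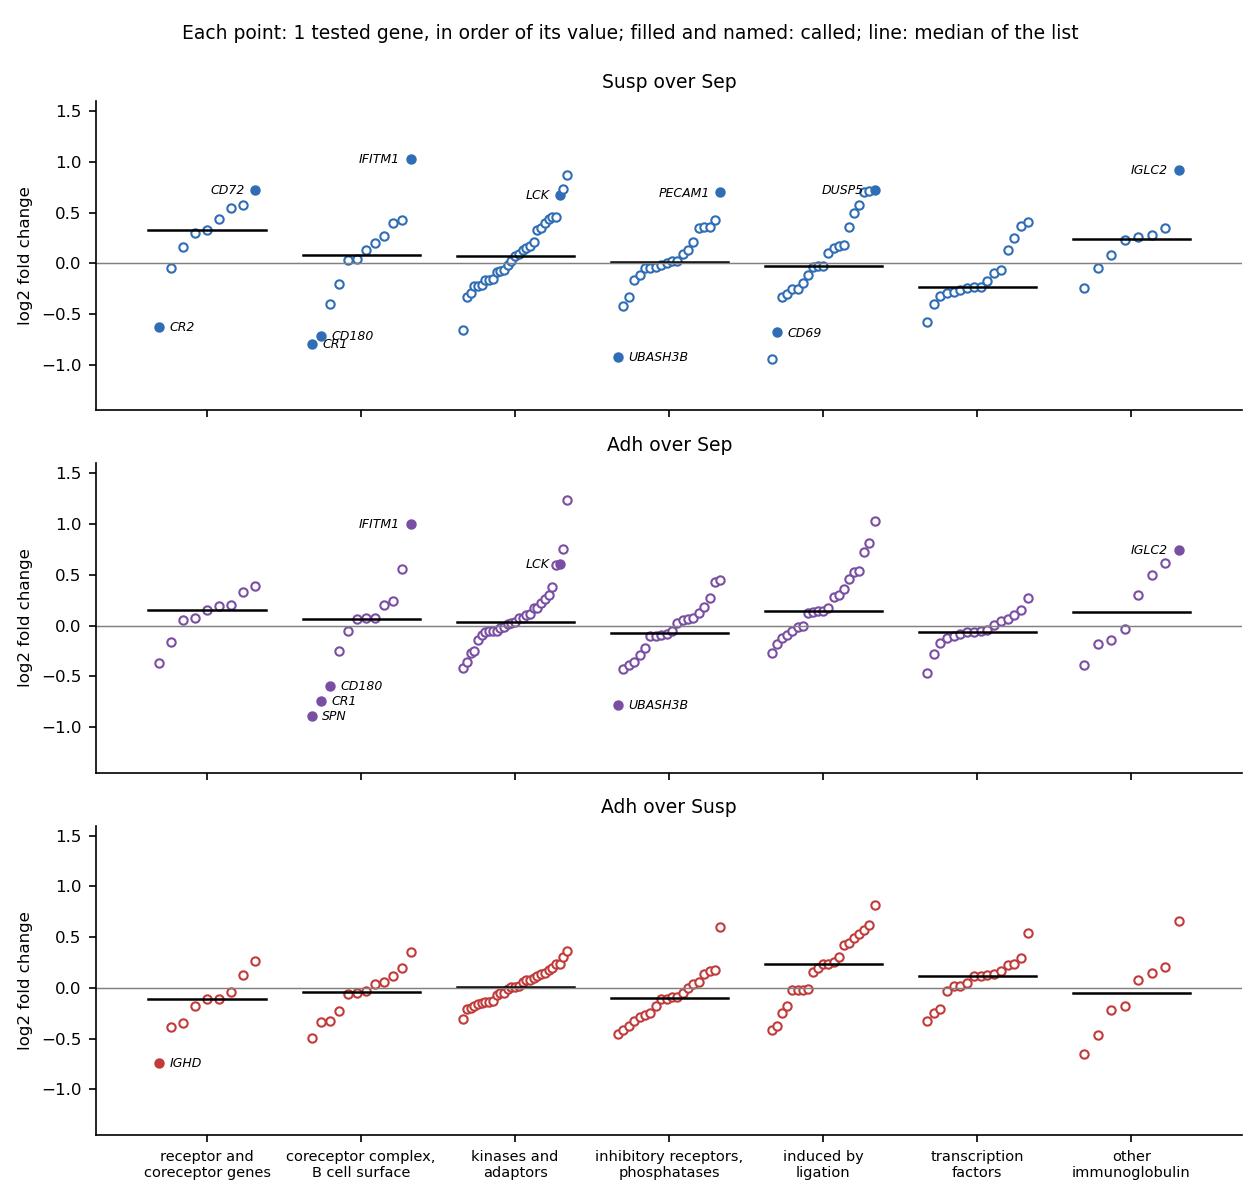
Log2 fold change (y axis) of each tested gene of the 9 and of 6 lists of pathway genes (x axis), in the 3 comparisons, with filled and named points for called genes and lines for the median of each list. Calls are few in every list, and IGHD is the only filled point in Adh over Susp.

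The genes whose log2 CPM followed each of the 9 most closely over the 12 libraries, among 8492 genes with a mean of at least 10 CPM, were mostly not of the pathway. They were ILVBL (r = 0.987) and MRPL4 (0.979) for IGHM, TSTA3 (0.946) and SLC10A3 (0.941) for IGHD, and URM1 (0.979) for IGKC. CD79A and CD79B both had CD81 among their closest genes (0.982 and 0.98), beside RPL29 (0.982) and RPL13A (0.977). CR2 was followed by IDS (0.98) and LTBP1 (0.970), CD22 by CXCL10 (0.934) and CABLES1 (0.928), CD72 by P2RX1 (0.939) and ZFAS1 (0.918), and MS4A1 by DDX18 and MAPRE1 (0.938 each). These are the highest values of a search over all such genes and are given as a description.

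On the stromal side, mouse counterparts of the 9 genes were almost absent, which bears on the separation of species in the Adh libraries. Ighm, Ighd, Igkc, Cd79b and Cd22 had 0 counts in all 8 libraries with mouse reads, and Cd79a, Cr2, Cd72 and Ms4a1 summed to 2, 9, 5 and 2 of 129050619 mouse counts in the 4 Adh libraries. MS-5 cells expressed stromal genes such as Col1a1, at 1313 CPM alone and 1325 CPM in coculture. Of the genes for ligands, C3, the source of the complement fragments that CR2 binds, was at 3.75 ± 1.02 CPM in MS-5 alone and 4.84 ± 2.27 CPM in coculture, a log2 difference of 0.37 with a 95% interval from -0.24 to 0.97 (adjusted p = 0.683, 0.205% of mouse genes called). St6gal1, which makes the sialic acid linkage that CD22 binds, was at 27.0 and 25.7 CPM, a difference of -0.07 with an interval from -0.40 to 0.26. Sema4d, which encodes a ligand of CD72, was detected at 2 counts in all in the Adh libraries and 0 in MS-5 alone.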

How the data were processed

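Fragment counts per gene were deposited by the authors for the REC-1 and MS-5 libraries, made from unstranded, poly-T selected paired-end libraries. The authors separated read pairs by species with Xenome, aligned them to GRCh38 or GRCm38 with STAR 2.5.1b, keeping pairs with a single alignment, and counted them over exons with featureCounts of Subread 1.5.2, whose strand setting is not given in the sources used here. Pairs from near-identical gene segments are therefore partly lost. A further 20 columns of the tables belong to none of the samples listed and were not used.

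Counts were filtered with filterByExpr, scaled by TMM and fitted with edgeR 4.0.16 (R 4.3.3, quasi-likelihood F-test, legacy form, Benjamini-Hochberg adjustment) in 1 model over the 12 REC-1 libraries, and in another over the 4 Adh and 4 MS-5 libraries for mouse counts. Standard errors and 95% intervals were derived from the F statistic. The code was tested on simulated data. Alternatives were DESeq2 1.42.0, other scalings and filters, a replicate block and leaving out each library. Same-numbered libraries share a code number in the labels, which do not say whether it marks 1 experiment. They deviated together (r over 0.1) for 1 to 3 of 4 numbers in each comparison, which cannot show whether they are pairs. The numbers were not taken as pairs in the main fit, and the replicate block and paired signs are given as alternatives. No library appeared to be deposited more than once (chi-square per degree of freedom of 4.19 or more between replicates).

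The 9 genes, the pathway lists and the markers were chosen with earlier results of these data known. Genes named were the 9, every list gene called, the most abundant genes of lists without calls, and the 2 genes closest to each of the 9, and others are named as chosen after their values were seen. These include the J segments, MALAT1, NEAT1, CD81, SYK, LYN, BTK, IGHA1, MZB1 and the list genes that passed only the p threshold. Some items covered by these rules are not reported here. Figures were drawn with matplotlib 3.10.9.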

Additional observations from a re-analysis of the deposited data

Results flagged for a closer look

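CD79B was at 524 CPM in Sep replicate 4 and at 445 to 458 CPM in Sep replicates 1 to 3. The gap to the nearest library was 0.834 of the range of the group, above the limit of 0.829 for 4 samples. It was 1 of 51 groups examined in this way, and chance alone flags about 1 in 20 groups. Without this library the difference of CD79B between Susp and Sep was called, at a log2 fold change of 0.60 (edgeR, adjusted p = 0.0364), and it was also called without Susp replicate 1 or Susp replicate 4, at 0.61 in each case. The cause was not tested.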

How the results depend on the processing

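Under the alternatives other than leaving out a library or dropping the fold minimum, the call and direction of each of the 9 genes were the same as reported in all 3 comparisons. With the replicate block, some differences reported as not passing did pass the p threshold of edgeR's test, all under 1.5-fold. They were IGHD (adjusted p = 0.0188) and CD79A (0.0410) in Susp versus Sep, CD72 (0.0421) in Adh versus Susp and CR2 (0.0422) in Adh versus Sep. Passes of the p threshold could also be lost. Over these settings (edgeR or DESeq2), the adjusted p reached 0.0887 for CD79B and 0.0826 for CD22 in Susp versus Sep. For CD22 in Adh versus Sep it reached 0.0538. With a library left out (edgeR), these values rose to 0.110, 0.108 and 0.0879. The number of all genes called moved more. Against 100 genes in Adh versus Susp, there were 281 with a replicate block, 282 with DESeq2, 341 without the low-count filter and 51 to 165 with a library left out. Against 94 genes in Susp versus Sep, the first 3 of these gave 175, 172 and 217. Against 309 genes in Adh versus Sep, DESeq2 gave 527, no filter 503 and a library left out 143 to 519. For MS-5 cells, against 25 genes, the block gave 45, DESeq2 38, no filter 45 and a library left out 8 to 36.

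Of the 9 genes, 0 to 1 was called in Adh versus Susp and 1 to 4 in Susp versus Sep when a library was left out. Of all tested genes, 51 to 165 and 64 to 135 were called in these cases. Without a fold minimum, 4 were called in Susp versus Sep, against 1.02% of all tested genes, and 1 in Adh versus Sep, against 3.41%. With paired signs in place of the free permutation, the IGHD share differed by the same -0.233 and 0.167 percentage points, with an exact adjusted p of 0.1875, and 4 pairs cannot give an unadjusted p below 0.125. With a library left out these differences were -0.252 to -0.214 and 0.151 to 0.183.

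Directions turned only for small, uncalled differences when a library was left out. In Adh versus Susp the values ranged from -0.19 to 0.0017 for IGHM, from -0.18 to 0.032 for IGKC and from -0.11 to 0.033 for IGKV3-11, each positive only without Susp replicate 2. MS4A1 in Susp versus Sep ranged from -0.10 to 0.043 (positive without Sep replicate 1), and IGHM in Adh versus Sep was -0.016 without Sep replicate 1 and -0.018 without Adh replicate 4, and at most 0.13. C3 ranged from -0.017 (without Adh replicate 1) to 0.56 and St6gal1 from -0.24 to 0.062 (without Adh replicate 3). The cause of these changes was not tested. Depth limits the low genes, such as IFITM1 at a mean of 2.55 CPM in Sep and IGHD at 172 counts in the library where it had fewest.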
